A study of Mus musculus with 6 samples.

Results

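The genes described here are Scnn1a, Scnn1b and Scnn1g, which encode the α, β and γ subunits of the epithelial sodium channel (ENaC), and Kcnj1, which encodes the potassium channel ROMK. They were chosen by name, but with earlier results of these data known. All 4 could be read among the 9519 genes that the deposited counts cover. The 6 RNA sequencing libraries came from kidneys of C57BL/6 mice, the common inbred laboratory strain, at postnatal day 21. Of the libraries, 3 carry the diagnosis acute renal failure (titled treat) and 3 the diagnosis healthy (titled control). The deposited count tables are themselves titled mutant and WT in place of treat and control, and no label names a genotype, so whether the groups differ in genotype is not known here. The groups are called ARF-labelled and healthy-labelled below, because the cause of the renal failure is not named in the labels and a marker of injury went against them. Krt20, a keratin of colon and urothelium that also rises in damaged tubules, stood at 12.2 ± 3.66 CPM (counts relative to the library total) in ARF-labelled and 158 ± 16.7 CPM in healthy-labelled libraries (SD, n = 3 each). Whether the libraries of a group are of different animals is not stated, and each p-value therefore reflects variation among libraries, which may be technical.

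ENaC sits in the apical membrane of the late distal convoluted tubule, the connecting tubule and the principal cells of the collecting duct, where it takes up sodium from the urine. The α subunit is needed for the channel to form, and the β and γ subunits carry it to the membrane in quantity and raise its current. Aldosterone, through the mineralocorticoid receptor, increases ENaC activity, and proteases cleave the α and γ subunits to open the channel. ROMK is the apical potassium channel of the thick ascending limb, where it recycles potassium for the sodium-potassium-chloride cotransporter, and of principal cells, where it secretes potassium with the sodium that ENaC takes up.

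The row names of the deposited tables do not always name the reads in them. Each gene was therefore read through whichever rows lie over its exons in the mouse assembly GRCm38. This takes the reads to be aligned to GRCm38, which was not tested, and the submitters' processing notes name mm9. The row that carries the name Scnn1g held 0 counts in all 6 libraries together, the row named Kcnj1 held 3 and the row named Scnn1b held 4. By position on GRCm38, the reads of these 3 genes stood in rows of other names. The row named Scnn1a does lie over part of Scnn1a and is described with that gene. Scnn1a (ENSMUSG00000030340, chromosome 6, 125320659 to 125344943, plus strand) was read in the row named Tnfrsf1a over 355 exon bases, all of them coding. Scnn1b (ENSMUSG00000030873, chromosome 7, 121865038 to 121918514, plus strand) was read in the row named Gm45191 over 545 coding bases. Its neighbour Scnn1g (ENSMUSG00000000216, chromosome 7, 121734479 to 121768475, plus strand) was read in the rows named Plk1 and Gm44985 over 609 exon bases, of which 204 are coding and the rest lie in its 3′ untranslated region. Kcnj1 (ENSMUSG00000041248, chromosome 9, 32372493 to 32399197, plus strand) was read in the row named Fli1 over 67 bases and none of them coding.

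**Figure D1:**
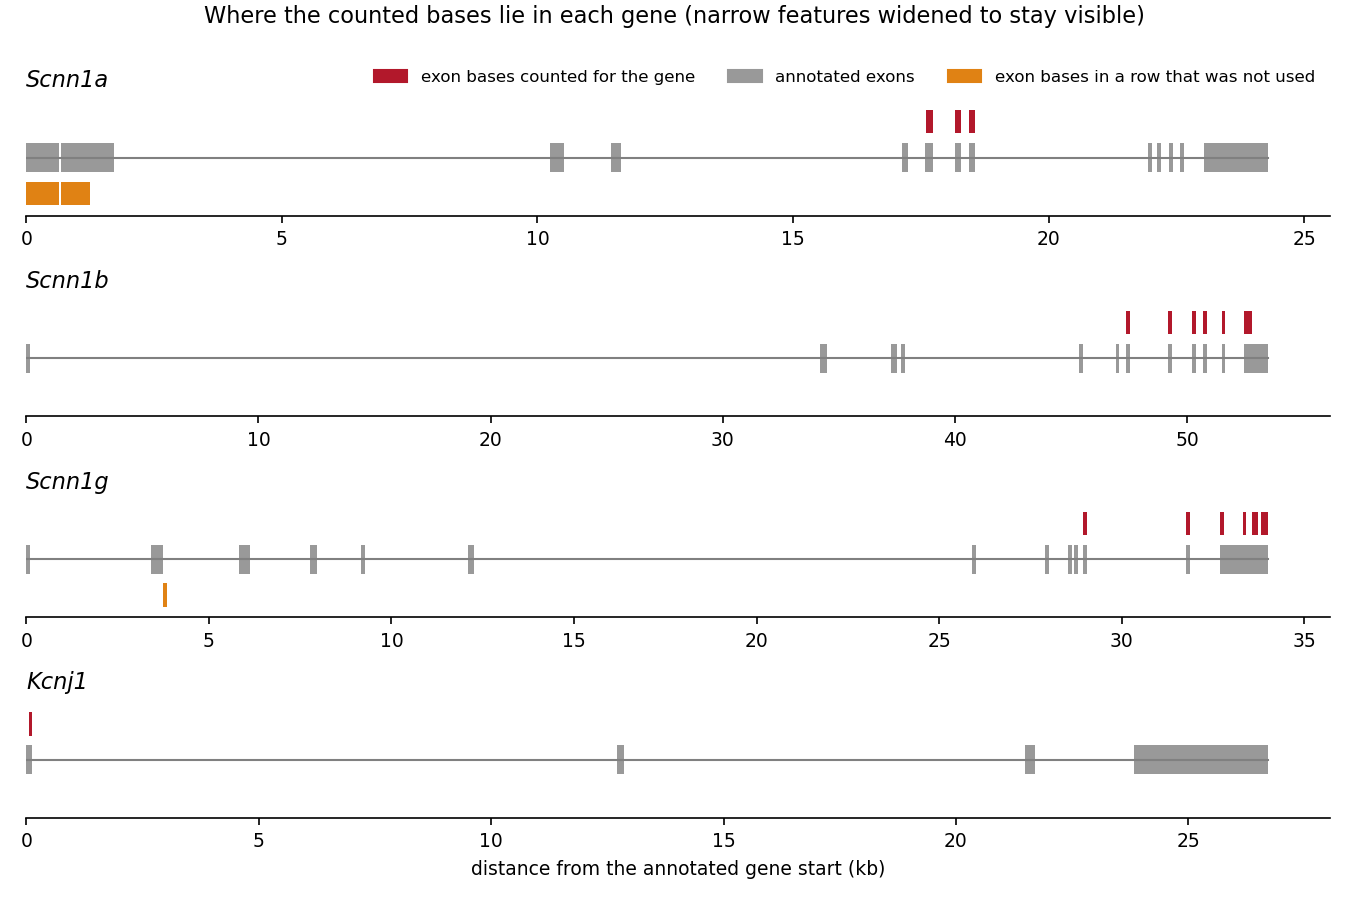
Counted exon bases of Scnn1a, Scnn1b, Scnn1g and Kcnj1 along each gene, with distance from the annotated gene start in kb on the x axis; grey boxes are annotated exons, red boxes above are the exon bases counted for the gene, and orange boxes below are exon bases in rows that were not used. The red boxes lie in middle exons of Scnn1a, towards the 3′ end of Scnn1b and Scnn1g and in the first exon of Kcnj1.

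The counted bases made up 8.59% of the exon bases of Scnn1a, 22.0% of those of Scnn1b, 20.4% of those of Scnn1g and 2.01% of those of Kcnj1. Levels of different genes are therefore not comparable, whereas the same bases are compared in every library. The rows also hold intron bases of the same genes, for example 4894 in the row that reads Scnn1b, so unspliced transcripts can contribute. Scnn1b overlaps Cog7 on the other strand, and strand was ignored in counting, so intron reads of Cog7 could enter that row. No exon of another gene in the comprehensive annotation touched the rows used for any of the 4 genes.

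The 3 ENaC subunits descend from a common ancestor, which raises the question whether reads of 1 subunit could be counted for another. Each has a coding exon of 118 bases at the matching place in the protein, and these exons are printed because those of Scnn1a and Scnn1b lie wholly inside the counted bases. The exons come from GENCODE M21 transcripts on GRCm38, plus strand, at chr6:125339106-125339223, chr7:121914212-121914329 and chr7:121762378-121762495 in the order shown. Capitals mark the positions at which all 3 genes have the same base.
Scnn1a: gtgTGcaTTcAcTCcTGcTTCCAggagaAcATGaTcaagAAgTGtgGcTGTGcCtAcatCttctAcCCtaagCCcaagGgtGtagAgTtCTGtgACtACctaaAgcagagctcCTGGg
Scnn1b: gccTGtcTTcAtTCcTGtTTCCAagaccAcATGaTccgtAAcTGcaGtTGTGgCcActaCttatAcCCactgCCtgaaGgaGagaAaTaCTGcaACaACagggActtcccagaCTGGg
Scnn1g: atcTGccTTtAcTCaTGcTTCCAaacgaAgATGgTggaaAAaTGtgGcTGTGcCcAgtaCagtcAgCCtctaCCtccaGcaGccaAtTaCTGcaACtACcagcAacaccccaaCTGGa
All 3 genes had the same base at 52 of the 118 positions (44.1%). Scnn1a and Scnn1b shared 58.5% of the bases, Scnn1a and Scnn1g 58.5%, and Scnn1b and Scnn1g 61.0%. The longest run of identical bases anywhere in a pair of whole transcripts was 13 for Scnn1a and Scnn1b, 20 for Scnn1a and Scnn1g, and 18 for Scnn1b and Scnn1g. The subunits are thus related but not near-identical copies.

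The comparison asks how these genes differ between ARF-labelled and healthy-labelled kidneys. All 4 were higher in the ARF-labelled libraries, ROMK the most, then the γ, β and α subunits of ENaC. Among all 5246 genes tested, 25.1% were called higher, by edgeR's quasi-likelihood test at a Benjamini-Hochberg adjusted p under 0.05 over all of them, and 50.0% were called in either direction. In 62.4% of the genes tested the groups did not overlap in CPM. The median log2 fold change of the 4 genes was 2.13, against 0.01 for all genes tested.

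Scnn1a, the α subunit, had 509, 559 and 604 CPM in the ARF-labelled libraries, against 240.1, 204 and 171 CPM in the healthy-labelled libraries. The lowest ARF-labelled library stood above the highest healthy-labelled library. The log2 fold change was 1.27 (SE 0.15, edgeR adjusted p = 0.000239), a 2.40-fold higher level, and it was the smallest change of the 4.

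Scnn1b, the β subunit, had 536, 629 and 688 CPM in the ARF-labelled libraries, against 245 CPM in healthy-labelled replicate 1 and 154 and 143 CPM in the other 2. The groups did not overlap, although healthy-labelled replicate 1 stood apart from the other healthy-labelled libraries. The log2 fold change was 1.59 (SE 0.22, edgeR adjusted p = 0.000495), and without that library it was 1.88.

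Scnn1g, the γ subunit, had 734, 810.4 and 764 CPM in the ARF-labelled libraries, against 125, 103 and 93.1 CPM in the healthy-labelled libraries. Every ARF-labelled library was far above every healthy-labelled library, and within each group the values lay close together. The log2 fold change was 2.67 (SE 0.15, edgeR adjusted p = 8.81e-06), a 6.36-fold higher level, which ranked 61 among the 5246 genes tested.

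Kcnj1, the ROMK gene, had 184, 194 and 197 CPM in the ARF-labelled libraries, against 11.6, 18.4 and 8.81 CPM in the healthy-labelled libraries. The ARF-labelled libraries differed little among themselves, and the healthy-labelled values rest on 66, 53 and 32 counts. The log2 fold change was 3.75 (SE 0.22, edgeR adjusted p = 1.03e-05), a 13.4-fold higher level, which ranked 12 among the genes tested.

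**Figure D2:**
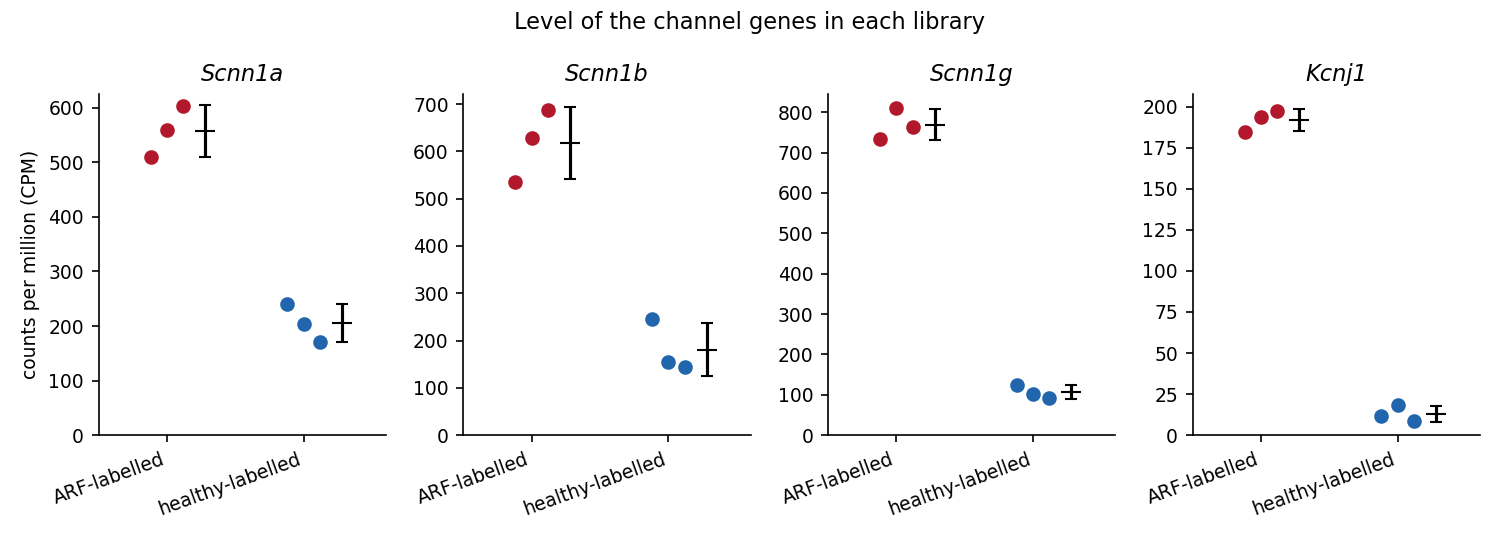
Level of Scnn1a, Scnn1b, Scnn1g and Kcnj1 in CPM (y axis, from 0) in each of the 3 ARF-labelled (red) and 3 healthy-labelled (blue) libraries, with the mean and SD in black. For Scnn1g the ARF-labelled points lie between 734 and 810.4 CPM and the healthy-labelled points between 93.1 and 125 CPM.

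The 67 bases that read Kcnj1 belong to the first exon of the annotated transcript Kcnj1-201, an untranslated exon. Of the 3 annotated transcripts, Kcnj1-202 and Kcnj1-203 begin with other first exons that no counted row touches, and Kcnj1-202 has 60 more coding bases than Kcnj1-201. Among annotated exons the change given for Kcnj1 thus rests on the start that lies farthest upstream, and the first exons of the other starts were not measured. The row named Fli1 holds a further 504 intron bases of Kcnj1 and 2915 bases outside it, which overlap no annotated exon, and the table does not show where in the row its reads lie.

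Where several rows lie over the same gene, they give separate readings of it on other bases. The rows over Scnn1g hold more intron than exon bases. The row named Plk1, with 448 exon bases of Scnn1g (43 of them coding and the others in its 3′ untranslated region), 1253 intron bases and 498 bases outside the gene, gave 2.64 (SE 0.14) on the log2 scale, and the row named Gm44985, with 161 coding and 855 intron bases, gave 2.84 (SE 0.19). Another row, named Gm15489, touches 4 coding bases and 969 intron bases, so it was not used for the gene. It held 660, 736 and 855 counts in the ARF-labelled libraries against 133, 59 and 64 in the healthy-labelled libraries, a log2 fold change of 2.50 (SE 0.15). All 3 rows over Scnn1g were called higher, as were 23.6% of the 10919 deposited rows tested. The estimates lay between 2.50 and 2.84, and a difference in size between the rows was not established. The log2 ratio of Gm44985 to Plk1 within a library differed between the groups by 0.23 and that of Gm44985 to Gm15489 by 0.36, each without overlap between the groups (exact two-sided permutation p = 0.1, the smallest possible, adjusted p = 0.133). For Gm15489 to Plk1 the difference was -0.13, and the groups overlapped (exact permutation p = 0.2).

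Scnn1a had a second reading that was smaller. The row that carries its own name lies over 1197 exon bases at the 5′ end of Scnn1a, nearly all untranslated, and over 243 exon bases of the neighbouring gene Ltbr, a receptor of the tumour necrosis factor family. Of these bases 630 lie in exons of 2 of the 4 annotated transcripts and 567 in exons of the other 2, whereas the bases used for Scnn1a are in all 4. The row was not used for the gene, since fewer than 0.9 of its exon bases belonged to Scnn1a. Its values were 727, 790.4 and 957 CPM in the ARF-labelled libraries, against 411, 436 and 399 CPM in the healthy-labelled libraries. The groups did not overlap there either, and the log2 fold change was 0.83 (SE 0.13, edgeR adjusted p = 0.000822). The log2 ratio of the row used to this row was -0.56 ± 0.09 in ARF-labelled and -1.03 ± 0.23 in healthy-labelled libraries (SD, n = 3 each), without overlap. An exact two-sided permutation test gave p = 0.1, the smallest that 3 against 3 libraries allow, and an adjusted p = 0.133 over the 4 such ratios computed within a gene. How many of that row's reads come from Ltbr was not tested.

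**Figure D3:**
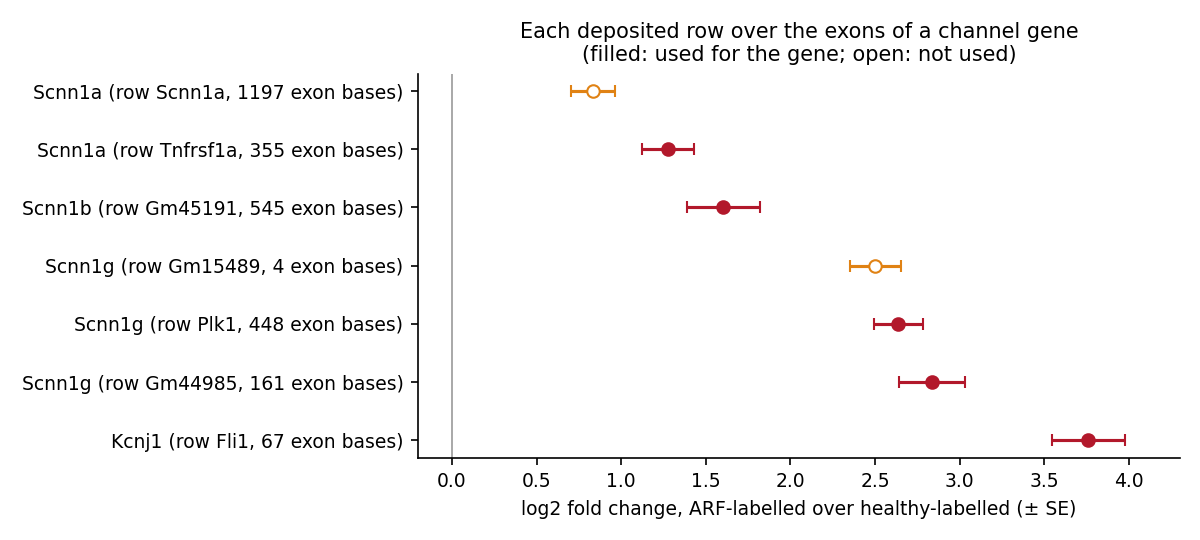
Log2 fold change of each deposited row over exons of a channel gene, ARF-labelled over healthy-labelled, on the x axis, with bars for the SE; filled red points are rows used for the gene and open orange points rows that were not used. The 3 rows over Scnn1g lie between 2.50 and 2.84, and the 2 rows over Scnn1a at 0.83 and 1.28.

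The row names themselves can turn a direction round. The row named Tnfrsf1a, which reads Scnn1a, was higher in the ARF-labelled libraries, while the gene Tnfrsf1a itself, read by position over 430 of its own exon bases, was lower. Tnfrsf1a encodes a receptor for tumour necrosis factor. It stood at 96.3 ± 6.90 CPM in ARF-labelled and 258 ± 7.97 CPM in healthy-labelled libraries (SD, n = 3 each), a log2 fold change of -1.59 (SE 0.10, edgeR adjusted p = 1.25e-05). The choice to name Tnfrsf1a was made with its value known.

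The estimated changes of the channel genes differed in size, but no difference between them was established. Ratios of counts within a library are free of library scaling, and 6 pairs of genes were compared. For every count of Scnn1a there were 1.44, 1.45 and 1.27 counts of Scnn1g in the ARF-labelled libraries, against 0.521, 0.503 and 0.545 in the healthy-labelled libraries. Over the counted bases, the γ subunit stood above the α subunit in each ARF-labelled library and below it in each healthy-labelled library. Because the counted stretches differ between the genes, only the change in the ratio can be read, not the proportion of the subunits. The log2 ratio of Scnn1g to Scnn1a was 0.47 ± 0.11 in ARF-labelled and -0.94 ± 0.06 in healthy-labelled libraries (SD, n = 3 each), a difference of 1.40.

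The β and α subunits kept closer together. The log2 ratio of Scnn1b to Scnn1a was 0.14 ± 0.06 in ARF-labelled and -0.21 ± 0.22 in healthy-labelled libraries, a difference of 0.36. The groups were separated only narrowly, by 0.07 in an ARF-labelled library against 0.03 in healthy-labelled replicate 1. The log2 ratio of Scnn1g to Scnn1b was 0.32 ± 0.15 in ARF-labelled and -0.72 ± 0.21 in healthy-labelled libraries, a difference of 1.05. Kcnj1 had log2 ratios that were higher in the ARF-labelled libraries, by 1.09 to Scnn1g, 2.14 to Scnn1b and 2.49 to Scnn1a. Its ratio to Scnn1g was -2.003 ± 0.05 in ARF-labelled and -3.09 ± 0.54 in healthy-labelled libraries. In all 6 pairs the groups did not overlap, and the exact two-sided permutation test gave p = 0.1 for each (adjusted p = 0.1 over the 6), the smallest value it can give with 3 against 3 libraries. None of the 6 differences could pass a threshold of 0.05 in this design. The pairs share genes, so the 6 results are not independent of each other. Among individual genes tested, the groups did not overlap in CPM in 62.4%. How often ratios of other gene pairs separate the groups was not tested, so the lack of overlap is not particular to the channel genes on these values.

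**Figure D4:**
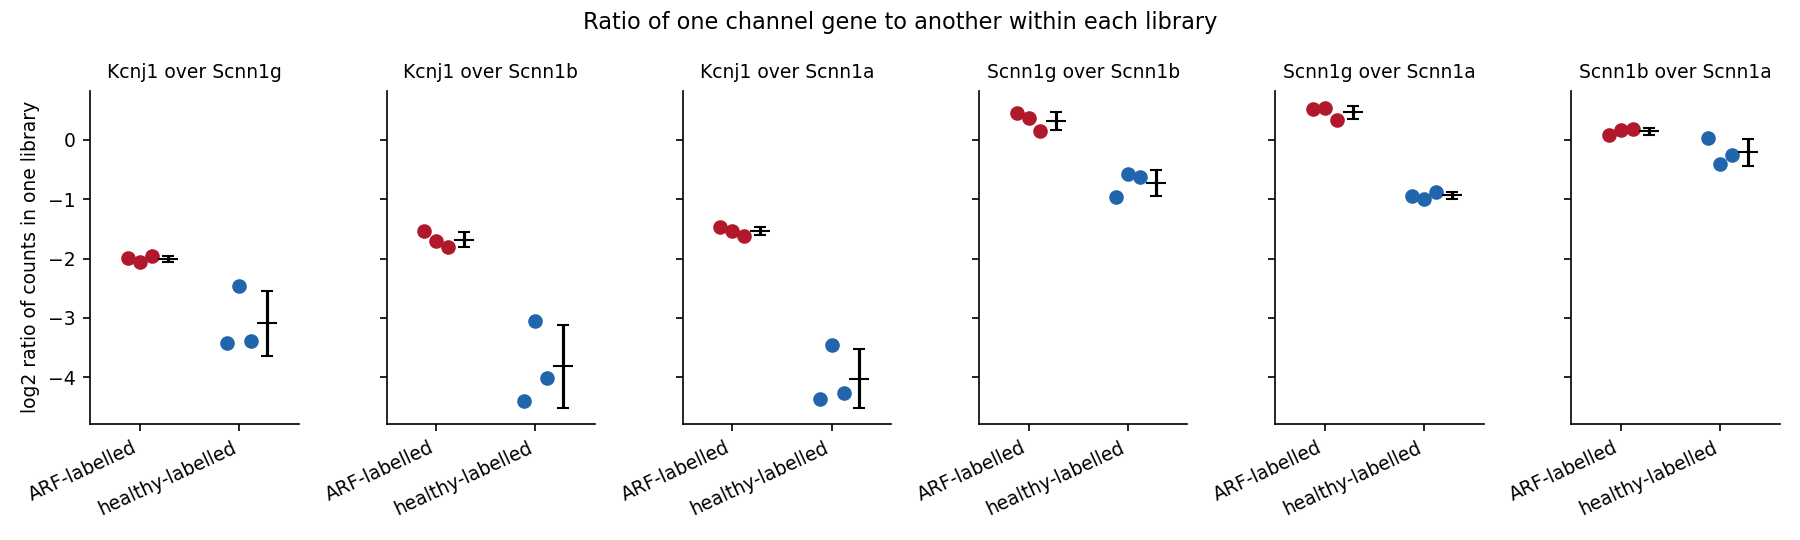
Log2 ratio of the counts of a channel gene to those of another within the same library (y axis), for 6 pairs, in the 3 ARF-labelled (red) and 3 healthy-labelled (blue) libraries, with the mean and SD in black. The groups are farthest apart for Kcnj1 over Scnn1a, with a difference of 2.49, and nearest for Scnn1b over Scnn1a, with a difference of 0.36.

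Promoter sequences are shown for Scnn1g and Scnn1b, the neighbours on chromosome 7 whose estimated changes differed in size. They come from RefSeq on GRCm38.p6, each from 250 bases before to 50 bases after the gene start, at chr7:121734229-121734528 and chr7:121864788-121865087 on the plus strand. Both strands were searched for the GC box GGGCGG, the half-site AGAACA of the glucocorticoid and mineralocorticoid response element, and the TATA box TATAAA, and capitals mark the matches.
Scnn1g: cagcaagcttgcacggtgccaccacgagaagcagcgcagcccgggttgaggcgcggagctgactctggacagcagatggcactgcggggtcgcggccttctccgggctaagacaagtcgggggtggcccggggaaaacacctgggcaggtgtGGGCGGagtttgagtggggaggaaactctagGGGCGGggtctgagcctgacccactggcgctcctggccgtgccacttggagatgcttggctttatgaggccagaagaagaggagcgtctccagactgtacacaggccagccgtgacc
Scnn1b: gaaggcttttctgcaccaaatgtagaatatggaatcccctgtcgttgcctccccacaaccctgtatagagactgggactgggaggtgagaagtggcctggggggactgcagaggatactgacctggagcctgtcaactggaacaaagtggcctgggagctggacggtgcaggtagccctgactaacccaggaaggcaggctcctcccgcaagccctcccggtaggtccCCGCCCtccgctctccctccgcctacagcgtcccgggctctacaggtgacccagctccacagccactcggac
Scnn1g had 2 GC boxes, which begin 98 and 67 bases before the start, and Scnn1b had 1, which begins 22 bases before it. Neither window held AGAACA or TATAAA. Of 32851 promoters of this length in the table, 35.7% held the GC box, 19.0% AGAACA and 13.6% TATAAA. The table's promoter of Kcnj1 (chromosome 9, 32393735 to 32394034) is that of Kcnj1-202, whose first exon was not counted. It held AGAACA 2 times, 190 and 14 bases before that start, and neither of the other motifs. Scnn1a had no matching entry.

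The pathway around the channels was read from 4 lists with 66 genes in all, of which 23 could be read by position and 20 were tested. Of the 20, the ARF-labelled libraries had 4 higher and 8 lower, and 8 were not called. Among all genes tested 25.1% were higher and 24.9% lower. The median log2 fold change of the 20 genes was 0.05, against 0.01 for all genes tested. The mineralocorticoid receptor Nr3c2, its guard enzyme Hsd11b2, the ubiquitin ligase Nedd4l, which removes ENaC from the membrane, the proteases Prss8 and Furin and the kinases Wnk1 and Wnk4 were not read by position and are not analysed here. Sgk1, the aldosterone-induced kinase, was read over 440 exon bases but held at most 17 counts in a library, too few to be tested.

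Of 13 genes of the mineralocorticoid signal, 4 were tested, with 3 lower, 0 higher and a median log2 fold change of -0.77. Nr3c1, the glucocorticoid receptor, had 48.0, 47.6 and 43.0 CPM in the ARF-labelled libraries, against 62, 73.4 and 69.7 CPM in the healthy-labelled libraries (log2 fold change -0.74, SE 0.12, edgeR adjusted p = 0.00134). Fkbp5, a co-chaperone of steroid receptors that is itself induced by steroid hormones, had 346, 307 and 484 CPM in ARF-labelled against 548, 604 and 607 CPM in healthy-labelled libraries (log2 fold change -0.81, SE 0.17, edgeR adjusted p = 0.00408). Zbtb16, a steroid-responsive zinc finger repressor, was lower as well (log2 fold change -1.02, SE 0.24, edgeR adjusted p = 0.00782). These 3 genes went the other way from the channel genes. Since Nr3c2 and Hsd11b2 were not read and Sgk1 was not tested, the aldosterone signal itself was not measured. The deubiquitinase Usp2 did not pass the test at a log2 fold change of 0.19 (edgeR adjusted p = 0.359).

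Of 20 ubiquitin ligase, WNK kinase and partner genes, 8 were tested, with 1 higher, 3 lower and a median log2 fold change of -0.22. Mapkap1, a subunit of the mTORC2 complex that activates Sgk1, had a log2 fold change of 0.54 (SE 0.13, edgeR adjusted p = 0.00764). Src, a tyrosine kinase that lowers ROMK at the membrane, had -1.07 (SE 0.18, edgeR adjusted p = 0.00145) and was read over only 40 exon bases. Cul3, the scaffold of the ligase that degrades WNK kinases, had -0.53 (edgeR adjusted p = 0.0125; 0.0535 without ARF-labelled replicate 1). Ywhab, a 14-3-3 protein, had -0.40 (edgeR adjusted p = 0.0166), and its call was lost with scaling by total count (-0.22, adjusted p = 0.106) and without ARF-labelled replicate 1 or 3 (adjusted p = 0.0681 and 0.0611). The other 4 tested genes, Oxsr1, Pdpk1, Itsn1 and Ywhae, had log2 fold changes of -0.35 to 0.39 and were not called; in the 15 alternative settings Oxsr1 was called in 2 and Pdpk1 in 3. No gene of this list had a change as large as that of any channel gene.

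Of 12 proteases and inhibitors, 3 were tested, with a median log2 fold change of 0.23. The transmembrane protease Tmprss2 had 527, 543 and 664 CPM in the ARF-labelled libraries, against 147, 118 and 117 CPM in the healthy-labelled libraries (log2 fold change 2.004, SE 0.15, edgeR adjusted p = 2.95e-05). The groups were well separated, and the change lay between those of the β and γ subunits. Serpine2, a secreted inhibitor of serine proteases, was lower (log2 fold change -1.92, SE 0.42, edgeR adjusted p = 0.00549). Healthy-labelled replicate 1, at 15.4 CPM, stood near ARF-labelled replicate 2, at 14.3 CPM. Healthy-labelled replicates 2 and 3 stood at 44.2 and 46.0 CPM. Spint2, a membrane-bound inhibitor of ENaC-cleaving proteases, missed the threshold at a log2 fold change of 0.23 (edgeR adjusted p = 0.130); it was called with scaling by total count (0.41, adjusted p = 0.0156) and without ARF-labelled replicate 1 (adjusted p = 0.0434).

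Among 22 other transport genes of the same cells, 5 were tested, with 2 higher, 1 lower and a median log2 fold change of 1.17. Kcnj10, the basolateral potassium channel of the distal nephron, had 264, 329 and 405 CPM in the ARF-labelled libraries, against 27.3, 24.7 and 17.6 CPM in the healthy-labelled libraries. Its log2 fold change of 3.66 (SE 0.22, edgeR adjusted p = 1.07e-05) lay within the SE of that of Kcnj1, and it was read over 688 exon bases. Asic1, an acid-sensing sodium channel of the same protein family as ENaC, had 1.17 and was not called (edgeR adjusted p = 0.0528); it was called in 5 of 15 alternative settings, with an adjusted p of 0.00188 to 0.0451. Slc4a5, a sodium bicarbonate cotransporter, was higher (log2 fold change 1.42, SE 0.37, edgeR adjusted p = 0.0118). Cftr, a chloride channel that interacts with ENaC in epithelia, went the other way, with 8.98, 4.34 and 4.04 CPM in the ARF-labelled libraries against 109, 60.6 and 74.1 CPM in the healthy-labelled libraries (log2 fold change -4.00, SE 0.34, edgeR adjusted p = 5.01e-05).

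**Figure D5:**
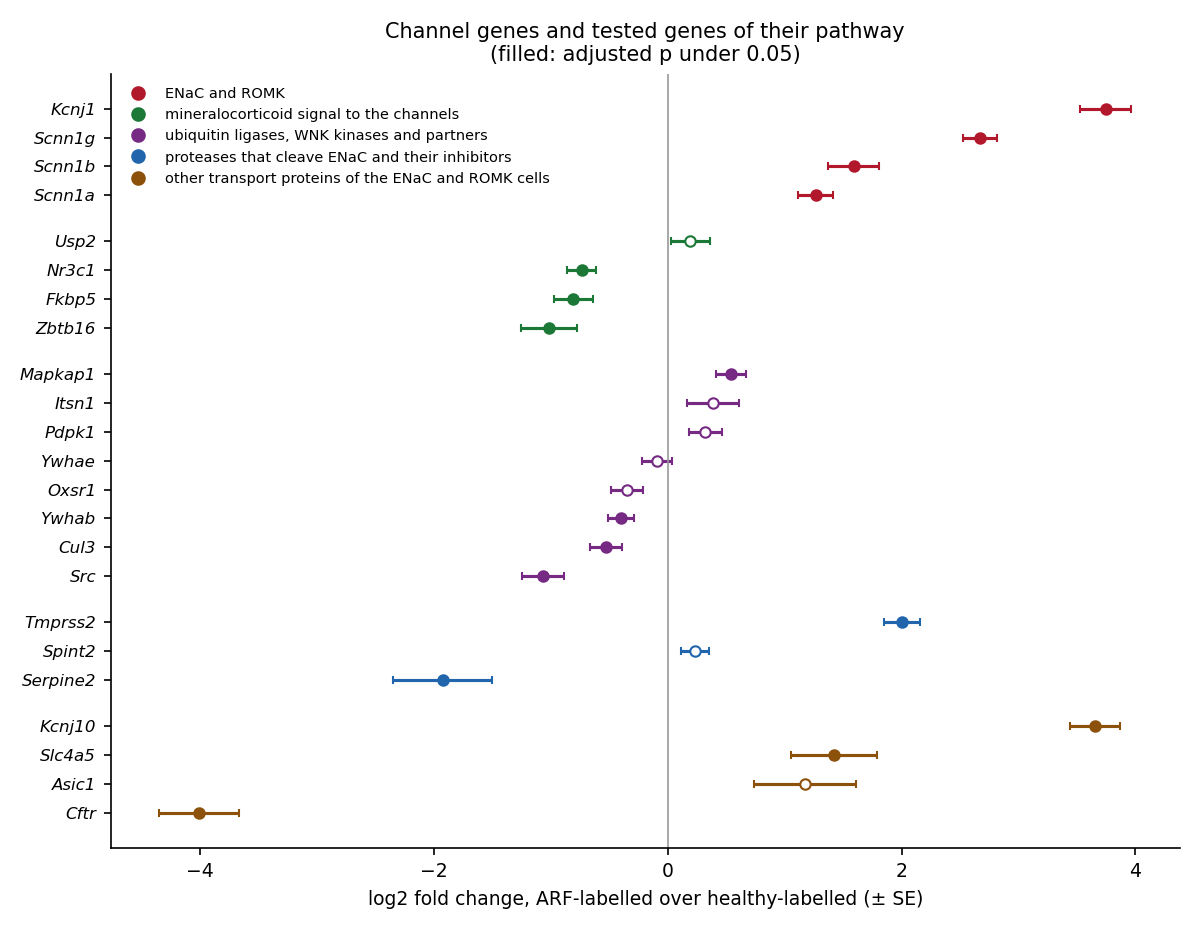
Log2 fold change, ARF-labelled over healthy-labelled, with SE bars (x axis) for the 4 channel genes and tested genes of their pathway lists, coloured by list; filled points have an adjusted p under 0.05. Kcnj10 and Tmprss2 lie at 3.66 and 2.004, near the channel genes, and Cftr lies at -4.00.

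In whole kidney RNA a change in the number of cells of a type and a change in the RNA per cell cannot be told apart, so markers of the cells that express the channels are given beside them. Of 13 principal cell markers 2 were tested and both were higher: the water channel Aqp3 (log2 fold change 1.19, SE 0.14, edgeR adjusted p = 0.000239) and the potassium channel subunit Kcne1 (3.18, SE 0.25, edgeR adjusted p = 3.50e-05). Their summed level was 7492 to 9362 CPM in ARF-labelled and 2949 to 3464 CPM in healthy-labelled libraries. Nearly all of that sum was Aqp3, so it adds little to the Aqp3 values. Kcne1 averaged only 50.3 CPM in ARF-labelled and 4.84 CPM in healthy-labelled libraries. All 9 tested intercalated cell markers, of 14, were higher, with a sum of 5218 to 6334 CPM in ARF-labelled and 1281 to 1587 CPM in healthy-labelled libraries. Of 6 proximal tubule markers tested, of 16, 5 were lower, with a sum of 3964 to 5628 CPM in ARF-labelled and 6197 to 9696 CPM in healthy-labelled libraries. Among all genes tested, 25.1% were called higher and 24.9% lower. No marker that could be read in these 3 lists was at 0. The part of these cell types in the channel results was not tested.

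The thick ascending limb, the other site of ROMK, was read through 5 of 14 markers, of which 3 were tested and 0 were higher. Egf, the epidermal growth factor precursor, had a log2 fold change of -0.15 (edgeR adjusted p = 0.561), with the groups overlapping at 532, 340.1 and 600.3 CPM in ARF-labelled against 409.8, 572 and 470.1 CPM in healthy-labelled libraries. Ptger3, a prostaglandin receptor, had -0.61 (edgeR adjusted p = 0.0294), and the call was lost in 6 of the 15 alternative settings (adjusted p = 0.0630 to 0.0969). The summed level of the 5 markers was 355 to 619.9 CPM in ARF-labelled and 430.1 to 599 CPM in healthy-labelled libraries. The groups overlapped, but most of the sum was Egf, so it adds little to the Egf values. Kcnt1 and Cldn14 were too low to be tested. Kcnt1 held 25, 9 and 21 counts in ARF-labelled against 5, 2 and 3 in healthy-labelled libraries. Cldn14 held 3, 1 and 5 counts against 3, 3 and 2 in the same order. Distal convoluted and connecting tubule markers were divided, with 2 of 5 tested higher and 3 lower. Among all genes tested 25.1% were higher and 24.9% lower. The higher ones were the calcium-binding protein Calb1 (log2 fold change 1.98, SE 0.35, edgeR adjusted p = 0.00194) and Tmem52b (4.32, SE 0.30, edgeR adjusted p = 2.11e-05). The lower ones were the magnesium channel Trpm6 (-1.74, SE 0.31, edgeR adjusted p = 0.00192), Trpv5 (-1.58, SE 0.40, edgeR adjusted p = 0.0109) and Atp2b4 (-0.86, SE 0.19, edgeR adjusted p = 0.00638).

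Markers of other tissues that express ENaC were read in small part. Urothelial markers, of which 4 of 11 were read, summed to 246 to 310 CPM in ARF-labelled and 242 to 349 CPM in healthy-labelled libraries. The basal cell factor Trp63 was at 0. The similar sums hide opposite changes. Upk3a was higher (log2 fold change 1.86, edgeR adjusted p = 0.00081), Krt20 was lower (-3.87, edgeR adjusted p = 8.81e-06) and Krt5 was not called (-0.57, edgeR adjusted p = 0.296). Colon markers, of which 5 of 10 were read, summed to 28.4 to 45.3 CPM in ARF-labelled and 462 to 523 CPM in healthy-labelled libraries, and Krt20 belongs to both lists. Nearly all of the healthy-labelled sum was Ceacam1 and Krt20. Ceacam1 averaged 326 CPM there, against 19.9 CPM in ARF-labelled libraries. Lgals4 was low in both groups and overlapped, with means of 2.78 CPM (ARF-labelled) and 2.19 CPM (healthy-labelled). Muc2 held at most 5 counts in a library and Cdx2 at most 2. The difference in the sum is thus that of Ceacam1 and Krt20, not of the colon list as a whole. Of 10 airway markers 4 were read, at 5.01 to 7.15 CPM in all in ARF-labelled and 1.10 to 2.09 CPM in healthy-labelled libraries; Hopx was tested and was higher (log2 fold change 2.84), and the airway secretory gene Bpifa1 was at 0. Of blood and vessel markers tested, 6 of 6 macrophage and neutrophil, 2 of 2 erythroid and 3 of 4 endothelial genes were called lower. Among all genes tested, 24.9% were called lower in ARF-labelled kidneys. Fli1, an endothelial and blood transcription factor whose name the Kcnj1 row carries, could not be read by position.

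The genes most like each channel gene were found by Pearson's r of log2(CPM + 1) over the 6 libraries, as a description only. The libraries fall into 2 groups, so r is set mainly by the difference between them, and 84, 46, 163 and 108 genes had an r above 0.99 with Scnn1a, Scnn1b, Scnn1g and Kcnj1 in that order. Nearest to Kcnj1 were Aoc1, a diamine oxidase, Pgr, the progesterone receptor, and Scd2, a fatty acid desaturase, with r of 0.999, 0.999 and 0.998. Nearest to Scnn1g were Frem2, Tmem68 and Pak4 (r of 0.999 each), and nearest to Scnn1a were Mrgbp, Aplf and Patz1 (0.9998, 0.999 and 0.998). Nearest to Scnn1b were Cox17, Atp6v1b1 and Sppl2b (0.9997, 0.999 and 0.998). Atp6v1b1 rests on few reads, with 17, 20 and 29 counts in ARF-labelled and 4, 0 and 0 in healthy-labelled libraries. The genes nearest to the channel genes share a profile but not a size of change: the log2 fold change was 0.60 for Cox17 and 3.72 for Frem2. None of the channel genes was among the 3 nearest to another, with r from 0.950 between Scnn1b and Kcnj1 to 0.993 between Scnn1a and Scnn1b.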

How the data were processed

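Kidney RNA was extracted with Trizol and sequenced from TruSeq libraries, per the labels' protocols. The authors deposited fragment counts per gene row and library; per the file headers, featureCounts 2.0.1 counted pairs over exons summed by gene name, with both ends aligned, chimeric pairs left out and strand ignored. Bowtie 0.12.2 and mm9 are named in the submitters' processing notes. The aligner behind the counts and the build of the annotation are not given in the sources used here. Values that the authors named FPKM were not used. Total counts ran from 2873370 to 6191479 per library. The deposited count of each pair of libraries in a group differed by more than sampling noise (chi-square per degree of freedom 14.8 to 23.2).

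Each of 53546 rows was given to the gene of GRCm38 (GENCODE M21 basic, protein-coding and long non-coding) holding a share of 0.9 or more of the exon bases it overlaps, with a minimum of 25 bases, by bedtools 2.31.1 in Python 3.11.15; this gave 12401 rows with 63.0% of the counts. Counts were summed per gene. edgeR 4.0.16 in R 4.3.3 (glmQLFit, glmQLFTest) was run on all genes with the group term alone, TMM, filterByExpr and total counts of all rows as library sizes; p-values were two-sided and adjusted by Benjamini-Hochberg over the 5246 genes tested and no fold threshold. The same fit was run on all deposited rows. CPM is relative to the library total; log2 fold changes are ARF-labelled minus healthy-labelled after TMM, folds are taken from them, and the SE is the fold change divided by the square root of F. The fit was tested on simulated data. Within-library ratios used a pseudocount of 0.5 counts and exact permutation tests (scipy 1.17.1).

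Alternatives were DESeq2 1.42.0, limma 3.58.1, other scalings, filters, row rules, the replicate number as a block, and each library left out. Named genes are the channel genes, called pathway genes and uncalled ones of interest, and the 3 genes most like each channel gene. The genes, lists and tests were chosen with earlier results of these data known. Same-numbered libraries did not deviate together (correlation of deviations from the group means -0.06, -0.22 and -0.29). Not every gene of the lists is reported here by name; the list counts include all that were tested.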

Additional observations from a re-analysis of the deposited data

How the results depend on the processing

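All 4 channel genes kept their direction and their call in every alternative run. The log2 fold change ranged from 0.96 to 1.44 for Scnn1a, from 1.42 to 1.88 for Scnn1b, from 2.55 to 2.84 for Scnn1g and from 3.52 to 4.005 for Kcnj1, with a highest adjusted p of 0.00354. The lowest value of Scnn1a came from rows with at least 0.5 of the exon bases on the gene, which adds its 5′ row. Kcnj1 has no value where at least 100 exon bases are required, since it was read over 67. The number of genes called was 2624, and 2117 to 3488 in the alternatives. With scaling by total count 63.3% of the calls were higher, against 50.3% with TMM, and over all genes the median was 0.19, a shift to which changes are relative. Whether the replicate numbers pair the libraries is not known here. With the replicate block 2288 genes were called. The log2 fold changes were then 1.28, 1.63, 2.68 and 3.76 for Scnn1a, Scnn1b, Scnn1g and Kcnj1, and the calls of the 4 genes stood. Direction changed for genes that were not called: Ywhae, a 14-3-3 protein, had -0.09, and 0.083 with scaling by total count, and Egf had -0.15, with 0.021 under scaling by total count and -0.30 to 0.054 with each library left out in turn (0.054 without ARF-labelled replicate 2). The differences between members kept their direction without each library in turn and with a pseudocount of 2 counts, from 0.26 to 0.48 for Scnn1b over Scnn1a and from 0.92 to 1.40 for Kcnj1 over Scnn1g. The row readings were refitted without each library and with the block, which was decided after the data were seen, and stayed between 0.73 and 0.93 for the 5′ row of Scnn1a. Depth limits Kcnj1 in the healthy-labelled libraries, with 32 to 66 counts.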
